A study of Mus musculus with 6 samples.

Results

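The genes described here encode the matrix metalloproteinases (Mmp), the ADAM and ADAMTS metalloproteinases, the ADAMTS-like proteins and the 4 tissue inhibitors of metalloproteinases (Timp). Members were taken by gene symbol from the probe sets that the platform annotation assigns to a single gene, with the probe set of the highest mean kept for each. This gave 70 of the 18193 genes on the array: 18 Mmp, 4 Timp, 28 Adam, 15 Adamts and 5 Adamtsl genes. RNA came from prepubertal mouse testis cells, divided with magnetic beads into a Thy1-positive and a Thy1-negative fraction by whether they carry the surface glycoprotein Thy1. Per the labels, transplantation assays found the stem cells of spermatogenesis enriched in the Thy1-positive fraction, and the study looked for genes at least 10-fold higher there. The 3 arrays of a fraction come from separate donor preparations. Thy1-negative arrays are named N1 to N3 and Thy1-positive arrays P1 to P3. No treatment or genetic change is named for any group, and strain and exact age are not given in the sources used here. Each fraction is a mixture of cell types.

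Matrix metalloproteinases are zinc-dependent endopeptidases that cleave collagens, laminins and other proteins around cells, and TIMPs block them by binding the active site. ADAMs are membrane-anchored relatives, several of which cut growth factors, receptors and adhesion proteins off the cell surface, while a group of them is made by male germ cells and acts on sperm. ADAMTS proteases are secreted and cleave proteoglycans and procollagens, and ADAMTS-like proteins share their matrix-binding parts without the protease domain. In the testis, the basement membrane of the tubule is laid down by Sertoli and peritubular myoid cells and is remodelled as germ cells move.

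Levels are given as log2(intensity + 1). A difference is the Thy1-positive mean less the Thy1-negative mean, and its adjusted p comes from limma over all 18193 genes (n = 3 arrays per fraction). With so few arrays, precision is limited throughout. Probe sets differ in how brightly they bind, so levels are compared between arrays and never between genes. In cell mixtures of this kind, fewer cells of a type and less RNA per cell cannot be told apart.

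The sort was checked on Thy1 itself, which measured 2.35, 2.35 and 2.74 in the Thy1-negative against 6.05, 6.52 and 6.05 in the Thy1-positive fraction (difference 3.72, SE 0.19, adjusted p = 0.000984). Markers of 12 cell types were read beside the proteases. Of 15 undifferentiated spermatogonial markers 13 rose, while of 14 Sertoli cell markers 12 fell. Blood cell markers also moved with the sort: 17 of 18 macrophage, 6 of 7 mast cell and 4 of 9 T lymphocyte markers rose. Among 8 neutrophil markers 0 passed, and of 10 endothelial markers 2 rose and 1 fell. Over all genes 18.5% rose and 14.4% fell. The macrophage gene Cd163 measured between 2.49 and 2.51 on all 6 arrays.

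Of the 70 members, 3 were higher in Thy1-positive cells, namely Mmp9, Mmp19 and Adam17. Another 10 were lower, namely Mmp2, Mmp11, Mmp14, Mmp23, Timp3, Adam10, Adamts8, Adamts9, Adamts16 and Adamtsl2. These are 4.29% and 14.3% of the members, beside 18.5% and 14.4% of all genes called in the same directions. In either direction 18.6% of the members passed, beside 33.0% of all genes. The share of members called lower was thus near the background, and the share called higher was below it. Of the 57 members that did not pass, 31 measured less than 0.1 apart across all 6 arrays and below every array's median, so these probe sets gave no level that could be compared. Over the members the median difference was 0.00, beside 0.01 over all genes. By the 10-fold limit named in the labels, 1 member was higher (Mmp9) and 3 were lower (Adamts16, Mmp23 and Timp3), where 0.715% and 1.10% of all genes passed in these directions. These are folds of the kept probe sets as measured, and each of the 4 genes fell short of 10-fold under some setting. A pseudocount of 16 gave 3.06 for Mmp9, -3.26 for Mmp23 and -3.12 for Adamts16, which then no longer passed. Averaging the probe sets of each gene gave -2.18 for Adamts16 and -3.30 for Timp3.

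The call counts depend on scaling through the dim members. With arrays centred on their median 39 members were higher and 11 lower, where 57.4% and 14.6% of all genes passed. With arrays centred on housekeeping genes 3 were higher and 43 lower, where 17.5% and 47.2% of all genes passed. These settings moved the median over all genes to 0.13 and -0.14, and the members that gained a call were mostly those with no measurable spread between arrays. All 13 calls except that of Adam17 kept their direction and call under both scalings.

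**Figure D1:**
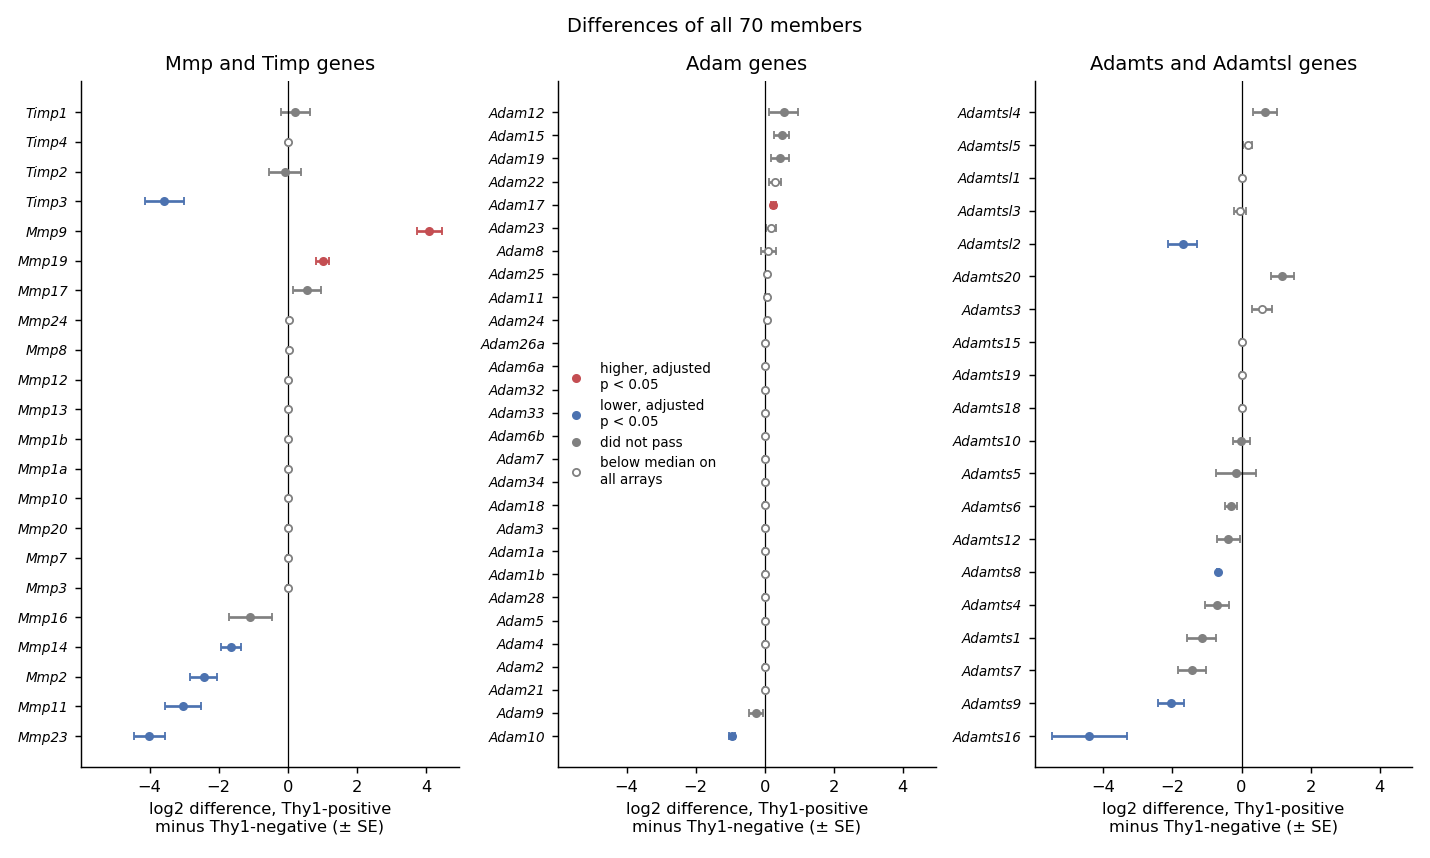
Log2 differences (Thy1-positive minus Thy1-negative) of all 70 members in 3 panels by family, with the SE of limma as bars; red marks genes that passed as higher, blue as lower, grey those that did not pass, and open points the members below the median on all 6 arrays. The open points, 40 in all, lie close to 0, and the largest differences as plotted, without a floor on dim values, are those of Mmp9 (4.10), Adamts16 (-4.41) and Mmp23 (-4.01).

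Promoter sequences are shown for 4 members that fell, because those of the called members that could be matched share a motif. RefSeq promoters of the GRCm38.p6 build, from 250 bases before to 50 bases after the start of the gene, were matched by Entrez identifier for 41 of the 70 members and for 8 of the 13 called ones. All 8 held the GC box GGGCGG or its reverse complement CCGCCC. The motif was in 35.7% of all 32851 promoters, in 11 of 16 other matched members that did not pass, and in 2 of the 17 matched members whose probe sets did not vary. A member was counted if any of its promoters held the motif, whereas the share over all promoters counts each promoter, so these are unlike measures. The called promoters were also rich in G and C in general, with a median of 67.0% against 52.0% for the members that did not pass and 52.7% for all promoters. Capitals mark the GC boxes below. The sequences lie at chr10:75932453-75932752 on the minus strand (Mmp11, with 4 boxes), chr14:54431348-54431647 on the plus strand (Mmp14, with 2), chr10:86300162-86300461 on the plus strand (Timp3, with 2) and chr9:70678732-70679031 on the plus strand (Adam10, with 3, of which a pair overlaps).
Mmp11: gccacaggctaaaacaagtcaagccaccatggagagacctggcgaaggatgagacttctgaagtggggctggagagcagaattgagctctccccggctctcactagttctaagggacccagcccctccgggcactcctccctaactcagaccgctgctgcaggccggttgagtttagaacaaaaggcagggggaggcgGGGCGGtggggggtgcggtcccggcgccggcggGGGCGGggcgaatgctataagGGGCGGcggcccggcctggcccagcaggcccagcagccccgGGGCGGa
Mmp14: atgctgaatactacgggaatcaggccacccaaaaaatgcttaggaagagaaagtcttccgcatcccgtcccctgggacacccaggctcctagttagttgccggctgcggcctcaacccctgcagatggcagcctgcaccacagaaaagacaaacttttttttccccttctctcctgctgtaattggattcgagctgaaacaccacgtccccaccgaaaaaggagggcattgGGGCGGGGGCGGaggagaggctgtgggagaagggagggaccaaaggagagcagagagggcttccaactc
Timp3: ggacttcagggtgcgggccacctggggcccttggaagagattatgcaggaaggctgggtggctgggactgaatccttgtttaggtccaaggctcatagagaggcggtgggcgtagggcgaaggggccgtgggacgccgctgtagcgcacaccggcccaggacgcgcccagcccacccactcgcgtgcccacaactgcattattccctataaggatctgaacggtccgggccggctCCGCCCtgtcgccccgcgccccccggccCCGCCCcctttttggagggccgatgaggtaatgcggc
Adam10: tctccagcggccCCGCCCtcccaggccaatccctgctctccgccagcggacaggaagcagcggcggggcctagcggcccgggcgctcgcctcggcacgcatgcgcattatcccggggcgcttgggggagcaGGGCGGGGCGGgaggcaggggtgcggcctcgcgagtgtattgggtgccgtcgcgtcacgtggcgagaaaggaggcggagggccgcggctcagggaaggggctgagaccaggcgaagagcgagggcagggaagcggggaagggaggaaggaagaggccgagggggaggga

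Other motifs were searched on both strands of the same windows and counted in the same way, by member and over single promoters. The TATA box TATAAA was in 1 of the 8 called members and in 10 of the 17 invariant ones. It was in 2 of the 16 other matched members that did not pass, and in 13.6% of all promoters. The AP-1 site TGANTCA was in 0 of 8, 9 of 17 and 2 of 16 members, and in 7.8% of promoters. Of the 9 invariant members with an AP-1 site, 8 were Mmp genes (Mmp1a, Mmp1b, Mmp3, Mmp7, Mmp10, Mmp12, Mmp13 and Mmp20), all of which also held a TATA box, and the other was Adam1b. The PU.1 core GAGGAA was in 2 of 8, 5 of 17 and 2 of 16 members, and in 28.3% of promoters. The GATA site AGATAA was in 0 of 8, 3 of 17 and 0 of 16, and in 11.2%. A match is a description of the letters and not of binding.

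The gelatinases Mmp2 and Mmp9, which digest denatured collagen and the type IV collagen of basement membranes, moved in opposite directions. Mmp9 measured 3.95, 3.99 and 3.09 (N1 to N3) against 8.05, 7.29 and 7.97 (P1 to P3). Every Thy1-positive array was above every Thy1-negative one, with P2 the lowest of its fraction. The difference was 4.10 (SE 0.35, adjusted p = 0.00369), or 17.1-fold. Since the Thy1-negative values lay below the array median, the fold was at least 11.9 when values below the median were raised to it. The other probe set of Mmp9 differed by 2.62.

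Mmp2 measured 11.56, 10.38 and 11.21 in Thy1-negative against 8.27, 9.04 and 8.53 in Thy1-positive cells, a difference of -2.43 (SE 0.39, adjusted p = 0.0124), or 5.41-fold lower. N2 was the lowest Thy1-negative and P2 the highest Thy1-positive array, and the fractions did not overlap. The other probe set of Mmp2 differed by -2.34. Mmp9 passed in each of the 6 fits that left out 1 array, whereas Mmp2 missed the threshold without N3 (-2.36) and without P3 (-2.39). Each member that passed did so with fractions that did not overlap, as did 14 members that did not pass. The Thy1-positive arrays lay above in 15 and the Thy1-negative in 12 of these 27 members, beside 31.6% and 19.8% of all genes (51.4% in all).

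The blood cell markers moved with Mmp9. Summed over the 18 macrophage markers, intensity was 209 to 247 in Thy1-negative and 17541, 24497 and 20466 in Thy1-positive cells (P1 to P3), so that P2 was the highest of its fraction, whereas it was the lowest for Mmp9. On all Thy1-negative arrays 14 of the 18 markers lay below the median. Of 8 neutrophil markers 0 passed by limma, and 1 (Csf3r) had an unadjusted p below 0.05. Their summed intensity was 1977, 716 and 857 (N1 to N3) against 6370, 1331 and 2385 (P1 to P3), so that P2 was the lowest Thy1-positive array, as for Mmp9. The granule gene S100a8 differed by 1.15 (adjusted p = 0.314), and the neutrophil genes Cxcr2 and Elane lay between 2.40 and 2.69 on every array. Mast cell markers summed to 36.7 to 44.1 in Thy1-negative and to 1401, 1070 and 1114 in Thy1-positive cells (P1 to P3), with P2 the lowest again. Undifferentiated spermatogonial markers summed to 3411, 6240 and 4172 (N1 to N3) against 22832, 22205 and 22635 (P1 to P3). Their mean levels on the Thy1-positive arrays were nearly equal (9.45, 9.44 and 9.51), so no order is read from them. T lymphocyte markers summed to 66.7 to 80.4 against 493, 544 and 492, with P2 the highest. The part of each cell type in the Mmp9 signal was not tested.

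**Figure D2:**
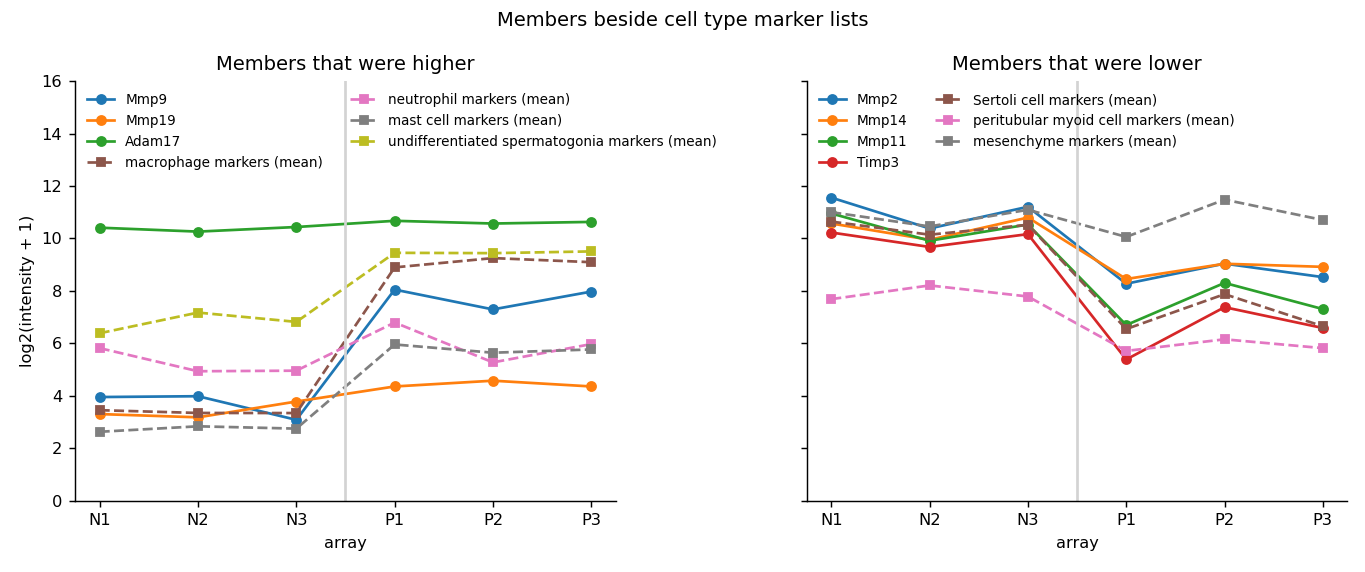
Log2(intensity + 1) on each array of members that were higher (left) and lower (right) in Thy1-positive cells, solid lines, beside the mean of cell type marker lists, dashed lines; lines join arrays for reading only. Mmp9 steps up between N3 and P1 with the macrophage, mast cell and spermatogonial lists, and Mmp2, Mmp14, Mmp11 and Timp3 step down with the Sertoli cell list, with P2 the highest Thy1-positive array for the 4 genes and that list.

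Membrane-type MMPs are held at the cell surface, where Mmp14 activates the precursor of Mmp2 in a complex that includes Timp2. Mmp14 measured 10.57, 9.95 and 10.80 in Thy1-negative against 8.45, 9.04 and 8.92 in Thy1-positive cells, with no overlap. It was 3.11-fold lower (-1.64, SE 0.29, adjusted p = 0.0160), and its other probe sets differed by -2.11 and -0.84, the latter without passing over all probe sets. The call was lost without N1 (-1.57), N3 (-1.46), P1 (-1.46) or P3 (-1.69). Mmp16 differed by -1.09 (SE 0.63, adjusted p = 0.268), with N2 (4.17) below P2 (4.95). Mmp17 differed by 0.56 (SE 0.41, adjusted p = 0.388) and was highest on N2 (5.38) among all arrays. Mmp24 lay between 3.67 and 3.73. Mmp14 was thus the member of this group that passed, out of 4.

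Mmp11, or stromelysin-3, and Mmp23 showed larger decreases. Mmp11, which is activated inside the secretory pathway, measured 10.95, 9.91 and 10.53 in Thy1-negative against 6.70, 8.31 and 7.31 in Thy1-positive cells. It was 8.16-fold lower (-3.03, SE 0.52, adjusted p = 0.0150), and missed the threshold without N1 (-2.78), N3 (-3.00) or P3 (-2.96). Mmp23, an MMP that lacks the hemopexin domain of most others, measured 8.87, 7.55 and 8.59 against 3.99, 4.85 and 4.16. It was 16.1-fold lower (-4.01, SE 0.45, adjusted p = 0.00588), with -4.71 at its other probe set, and passed in all 6 fits without 1 array. For both genes N2 was the lowest Thy1-negative and P2 the highest Thy1-positive array, and the fractions stayed apart.

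Mmp19, a secreted MMP found in many tissues, was the other Mmp gene that rose. It measured 3.31, 3.18 and 3.78 in Thy1-negative and 4.36, 4.58 and 4.36 in Thy1-positive cells (difference 1.01, SE 0.18, adjusted p = 0.0175). These values lie around the array median, and the fold was at least 1.18 with lower values raised to it, where the call was lost. Its other probe set lay between 2.75 and 2.76 on all arrays. The call was also lost without N1 (0.95), P1 (1.04), P2 (0.93) or P3 (1.04). The collagenases Mmp1a, Mmp1b, Mmp8 and Mmp13, the stromelysins Mmp3 and Mmp10, the matrilysin Mmp7, macrophage elastase Mmp12 and enamelysin Mmp20 measured between 2.33 and 2.76 on every array, all below the array median. Mmp12 lay between 2.69 and 2.71 on all arrays while macrophage markers rose.

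**Figure D3:**
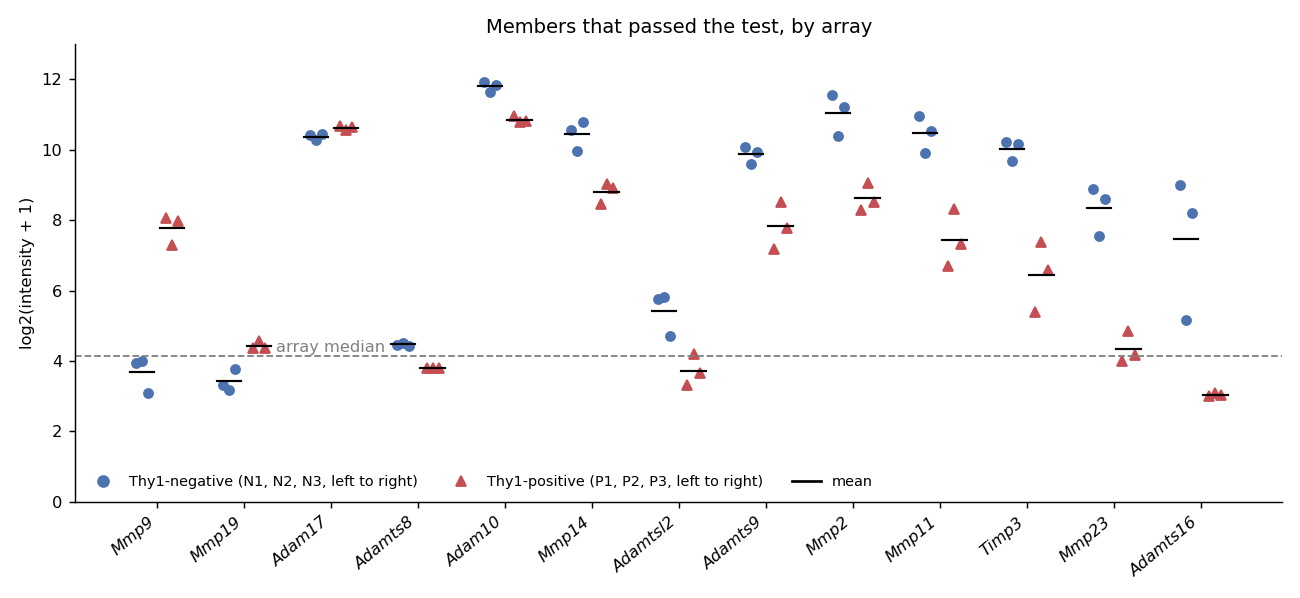
Log2(intensity + 1) of the 13 members that passed, ordered by difference, with circles for the Thy1-negative and triangles for the Thy1-positive arrays and black bars for means; the dashed line is the mean of the array medians. The points of the fractions do not overlap for any of the 13. All values of Mmp9 and Mmp19 in Thy1-negative and of Adamts8 and Adamts16 in Thy1-positive cells lie below the line. So do those of Mmp23 on P1 and of Adamtsl2 on P1 and P3.

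Of the 4 inhibitors, Timp3, which binds to the matrix and also blocks ADAM and ADAMTS proteases, was lower in Thy1-positive cells. It measured 10.23, 9.68 and 10.16 (N1 to N3) against 5.39, 7.38 and 6.59 (P1 to P3). The 3 Thy1-positive values spread over 1.99, more than the Thy1-negative ones, and all lay below the lowest Thy1-negative value. The difference was -3.57 (SE 0.56, adjusted p = 0.0123), or 11.9-fold, and the other probe sets differed by -3.41, -3.19 and -3.03. The call was lost without N3 (-3.50) or P3 (-3.64).

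Timp2, which inhibits MMPs and takes part in the activation of Mmp2, measured 10.25, 10.34 and 10.07 against 9.35, 11.03 and 10.05. P1 was below and P2 above all Thy1-negative arrays, and the difference did not pass (-0.07, SE 0.46, adjusted p = 0.944). Its 4 other probe sets above the median differed by 0.09 to 0.85, and none of these passed over all probe sets. Timp1, an inhibitor that cells often induce during tissue remodelling, measured 7.28, 6.20 and 7.06 against 7.30, 6.46 and 7.43 (0.22, SE 0.42, adjusted p = 0.785). Timp4 lay between 2.66 and 2.69.

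Most markers of Sertoli and peritubular myoid cells fell, as did Mmp2, Mmp11, Mmp14, Mmp23 and Timp3. The summed intensity of the 14 Sertoli cell markers was 110210 to 137310 in Thy1-negative and 10464, 29867 and 11286 (P1 to P3), and 3 of the 14 lay below the median on all Thy1-positive arrays. The peritubular myoid markers, of which 7 of 9 fell, summed to 16474 to 18094 against 2522, 3502 and 2652. Of 10 mesenchymal markers 1 fell, with mean levels of 10.85 in Thy1-negative and 10.75 in Thy1-positive cells. Their sum was 35408 to 48406 against 20133, 51362 and 30306. P2 was thus the highest Thy1-positive array for these 3 lists, as for the 5 genes. That order is not particular to them, since P2 was the highest for 23 of the 30 members that exceeded the median on some array. Timp2 and Adamts5, which did not pass, are among these. Of 5 Leydig cell markers 3 fell, and their sum was 5159 to 10400 against 3154, 2380 and 3767 (P1 to P3), with P2 the lowest Thy1-positive array. The part of these cells in each difference was not tested.

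Adam10 and Adam17 are the main sheddases of the cell surface: Adam10 cuts Notch receptors and cadherins, and Adam17 releases tumour necrosis factor and ligands of the EGF receptor. They were called in opposite directions, with small differences. Adam10 measured 11.93, 11.64 and 11.82 in Thy1-negative and 10.95, 10.79 and 10.82 in Thy1-positive cells, with no overlap. It was 1.93-fold lower (-0.95, SE 0.09, adjusted p = 0.00470), with -0.96 and -0.51 at its other probe sets above the median, and it passed in all 6 fits without 1 array.

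Adam17 measured 10.41, 10.26 and 10.44 against 10.67, 10.57 and 10.63, a difference of 0.25 (SE 0.06, adjusted p = 0.0324), or 1.19-fold. Its other probe sets rose by 0.74 and 0.47 and passed over all probe sets. The kept probe set passed in 1 of the 6 fits without 1 array, that without N2 (0.20), and failed in the others with 0.28, 0.29, 0.23, 0.28 and 0.25. With arrays centred on housekeeping genes it differed by 0.10 (adjusted p = 0.166, where the alternatives gave 0.000238 to 0.219). The difference of the kept probe set is thus small against the scaling. The other probe sets, which rose more, were not tested one by one under that scaling.

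Of the other Adam genes, outside the 16 known from testis and epididymis, 0 of 10 passed by limma. Also, 0 had an unadjusted p below 0.05, and 6 lay below the median on all arrays. Adam12, an ADAM of mesenchymal cells, measured 8.22, 7.12 and 8.28 against 7.92, 8.82 and 8.52 (0.55, SE 0.43, adjusted p = 0.418). Adam15 measured 6.40, 6.99 and 6.22 against 7.01, 7.06 and 7.01 (0.49, SE 0.22, adjusted p = 0.161). N2 had the highest Thy1-negative value, and Adam15 passed without that array (0.71). Adam19 differed by 0.43 (SE 0.26) and Adam9 by -0.25 (SE 0.19). Adam9 passed without N2 (-0.44). Adam8, an ADAM of myeloid cells, lay between 3.38 and 4.11, below the median on all arrays, while macrophage markers rose. Adam11, Adam22, Adam23, Adam28 and Adam33 were also below the median on all 6 arrays.

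The 16 Adam genes known from testis and epididymis lay between 2.43 and 3.23 on every array. They include Adam2 and Adam3, which belong to the surface proteins of sperm and are made late in spermatogenesis. Adam2 measured between 2.47 and 2.48 and Adam3 between 2.78 and 2.79 on all 6 arrays. Adam1a and Adam18 lay between 2.64 and 2.67. None of the 16 passed by limma, and 2 (Adam24 and Adam25) had an unadjusted p below 0.05 with differences of 0.05 and 0.07. Markers of spermatids were also dim, with 6 of 8 below the median on all arrays, and 1 (Spaca1) rose. Markers shared by germ cells were not: their mean level was 9.56 ± 0.90 (SD) in Thy1-negative and 11.42 ± 0.03 in Thy1-positive cells, and 6 of 13 rose.

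Among factors that process or carry sperm ADAMs, 1 of 9 measured genes rose and the other 8 did not pass, where 18.5% of all genes rose. The gene that rose was Tpst2, a tyrosine sulphotransferase of the Golgi (0.62, SE 0.09, adjusted p = 0.0110). Clgn, which encodes the chaperone calmegin, measured 4.52, 7.04 and 5.41 against 7.90, 7.96 and 7.95 and did not pass (2.28, SE 0.68, adjusted p = 0.0639). Tex101, a germ cell surface protein, differed by 2.11 (SE 0.68, adjusted p = 0.0759). N2 was the Thy1-negative array with the highest value for both genes.

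ADAMTS proteases that cleave the proteoglycans versican and aggrecan fell where they passed, in 2 of 7, where 14.4% of all genes fell. Adamts9 measured 10.07, 9.58 and 9.94 in Thy1-negative and 7.18, 8.50 and 7.77 in Thy1-positive cells. It was 4.13-fold lower (-2.05, SE 0.38, adjusted p = 0.0185), with -3.90 and -0.58 at its other probe sets, and missed the threshold without N1 (-1.94), N3 (-2.01) or P3 (-2.02). Adamts8 measured 4.44, 4.52 and 4.44 against 3.79, 3.79 and 3.79 (-0.68, SE 0.03, adjusted p = 0.000555). Its Thy1-positive values lay below the array median and hardly varied, so its small p rests on dim values. Its fold was 1.60 as measured and at least 1.31 with values below the median raised to it.

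Adamts1, which cleaves versican in the ovulating follicle, measured 9.90, 8.89 and 9.89 against 7.81, 8.87 and 8.54. N2 and P2 were nearly equal, and the fractions did not overlap. The difference did not pass (-1.15, SE 0.42, adjusted p = 0.106), but it did without N2 (-1.49). Adamts5, an aggrecanase, measured 11.43, 10.82 and 11.17 against 9.99, 12.05 and 10.88, with the lowest and the highest value both among Thy1-positive arrays (-0.16, SE 0.58, adjusted p = 0.904). Adamts4 differed by -0.70 (SE 0.35, adjusted p = 0.205), while its other probe set differed by -1.59 (SE 0.31) and passed over all probe sets. Adamts20 was the member of this group with a positive difference above background (1.18, SE 0.33, adjusted p = 0.0546), and it did not pass. It passed without N2, and under all 3 other scalings, the filter on dim genes, both floors on low values, the intensity trend and array weights.

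Adamts16, a secreted protease, had the widest spread of the called members in Thy1-negative cells. It measured 9.003, 5.17 and 8.20 (N1 to N3) against 3.01, 3.09 and 3.03 (P1 to P3). The difference was -4.41 (SE 1.08, adjusted p = 0.0378), or 21.3-fold, and at least 10.4-fold with values below the median raised to it. On that last scale its difference was -3.38, smaller than those of Mmp23 (-3.97) and Timp3 (-3.57). The call held in 1 of the 6 fits without 1 array, that without N2 (-5.55), and the lowest size was -3.64, without N1. The fits without N3, P1, P2 and P3 gave -4.04, -4.39, -4.43 and -4.41 and did not pass. Its other probe set lay between 2.25 and 2.38 on all arrays. Adamts7, which cleaves cartilage oligomeric matrix protein, differed by -1.43 (SE 0.40, adjusted p = 0.0548) and did not pass. It passed without P2, without both arrays numbered 2, and under both centrings, the filter on dim genes, both floors on low values, the intensity trend and array weights. Adamts10 (-0.00, SE 0.25) and Adamts12 (-0.38, SE 0.33) did not pass, and Adamts3, the procollagen N-proteinase measured here, lay below the median on all arrays.

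Of 5 Adamts-like genes, Adamtsl2, whose protein binds fibrillin microfibrils, was lower. It measured 5.77, 5.82 and 4.70 against 3.31, 4.20 and 3.66, with no overlap (-1.71, SE 0.42, adjusted p = 0.0373). With values below the median raised to it, the difference was -1.31. The call held without N3 (-2.07) and was lost without N1 (-1.54), N2 (-1.51), P1 (-1.50), P2 (-1.95) or P3 (-1.67). Adamtsl4 differed by 0.67 (SE 0.34, adjusted p = 0.216), and Adamtsl1, Adamtsl3 and Adamtsl5 lay below the median on all arrays.

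Within the fractions the arrays differed in a common way over the 30 members that exceeded the median on at least 1 array. N2 was the lowest Thy1-negative array for 22 of them, and P1 the lowest and P2 the highest Thy1-positive array for 22 and 23. The median deviation from the mean of the fraction was -0.32 for N2, -0.34 for P1 and 0.31 for P2. The mesenchymal list followed the same order in Thy1-positive cells, with means of 10.06, 11.48 and 10.70, and N2 (10.46) was its lowest Thy1-negative array. The Sertoli cell list did so too, with means of 6.55, 7.88 and 6.65 and with N2 (10.14) the lowest. The peritubular myoid list had this Thy1-positive order (5.71, 6.15 and 5.82), but N2 (8.21) was its highest Thy1-negative array. Germ cell markers went the other way in Thy1-negative cells, with means of 8.81, 10.56 and 9.32. Whether these differences in makeup account for the deviations was not tested.

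**Figure D4:**
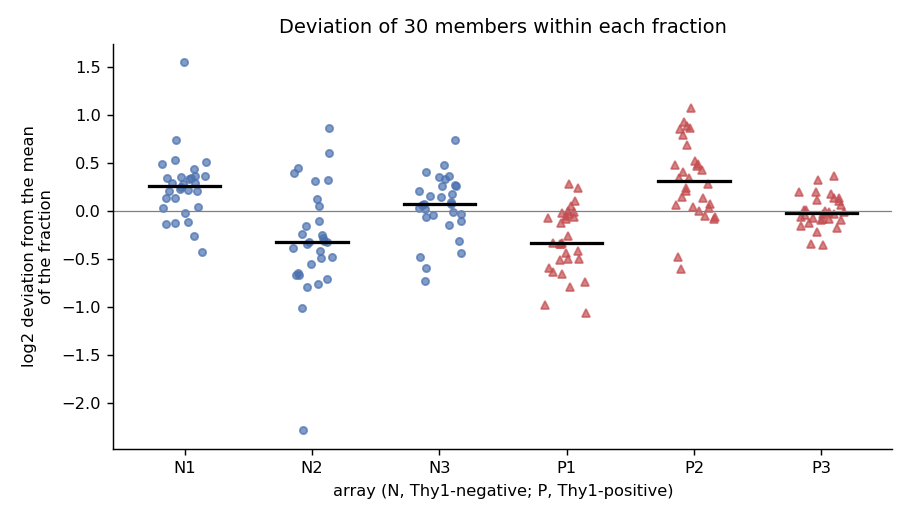
Deviation of each of the 30 members above the median on some array from its mean in the fraction, in log2 units, with 1 point per member and array and a black bar at the median. The bars of N2 (-0.32) and P1 (-0.34) lie below 0 and those of N1 (0.26) and P2 (0.31) above it; the lowest point of N2 is Adamts16.

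Probe sets of the same gene mostly pointed the same way where they measured a signal. Of the 70 members 32 had several probe sets, with 54 besides those kept. Of these, 28 lay below the median on all arrays. Among the 13 brighter ones that belong to called members, all 13 had the sign of the kept probe set and 12 passed over all 45037 probe sets, the exception being that of Mmp14. Of the 13 brighter ones of members that did not pass, 1 passed, that of Adamts4.

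**Figure D5:**
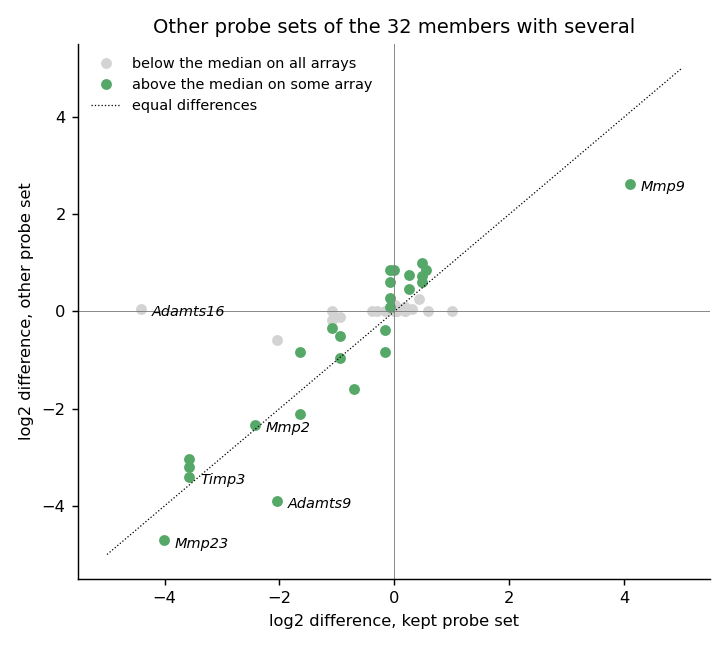
Log2 difference (Thy1-positive minus Thy1-negative) of each of the 54 other probe sets against that of the kept probe set of the same gene, green where above the median on some array and grey where below it on all; the dotted line marks equal differences. A green point of Adam10 (-0.95 kept, -0.96 other) and that of Mmp2 (-2.43 kept, -2.34 other) lie close to the line. Those of Mmp9 (4.10 kept, 2.62 other), Adamts9 (-2.05 kept, -3.90 other) and Mmp23 (-4.01 kept, -4.71 other) lie below it. Grey points lie near 0 on the vertical axis, as for Adamts16.

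Of 21 measured regulators of these proteases, 2 rose and 6 fell, where 18.5% of all genes rose and 14.4% fell. Their median difference was -0.00, beside 0.01 over all genes. Those that rose were Frmd8, which stabilises Adam17 with its carrier proteins (1.38, SE 0.24, adjusted p = 0.0149), and Tspan14, a tetraspanin partner of Adam10 (0.28, SE 0.07, adjusted p = 0.0453). The strongest decreases were in Spock2, a testican of the matrix (-3.54, SE 0.69), Pcsk6 (-3.50, SE 0.32) and Pcsk5 (-2.23, SE 0.26), proprotein convertases that activate protease precursors. Furin, the convertase of many MMP and ADAM precursors, fell by 1.37 on the log2 scale, Rhbdf1, a carrier of Adam17, by 1.52 and the tetraspanin Tspan17 by 1.66. Rhbdf2 (-0.41, SE 0.23, adjusted p = 0.244), the MMP inducer Bsg (0.31, SE 0.10, adjusted p = 0.0746) and the membrane-bound MMP inhibitor Reck (0.01, SE 0.11, adjusted p = 0.954) did not pass.

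The plasminogen system, which activates several MMP precursors, had 1 gene that rose and 2 that fell of 7 measured, with a median difference of 0.01. Over all genes 18.5% rose and 14.4% fell. Plaur, the urokinase receptor, measured 4.86 on each Thy1-negative array and 6.42, 5.42 and 5.999 in Thy1-positive cells (1.09, SE 0.27, adjusted p = 0.0384). Its Thy1-positive order of P1, P3 and P2 was that of Mmp9. The Thy1-negative values hardly varied (SD 0.0007), so the difference may be only a lower bound. Plat, or tissue plasminogen activator, was lower (-1.05, SE 0.11, adjusted p = 0.00486), as was the inhibitor Serpina5 (-4.27, SE 0.56, adjusted p = 0.00832). Plau lay between 2.77 and 2.81.

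Of 29 measured matrix proteins that these enzymes cleave, 2 rose and 8 fell, with a median difference of -0.58, where 18.5% of all genes rose and 14.4% fell and their median was 0.01. The strongest decreases were in the proteoglycan Bcan (-4.19, SE 0.37), the laminin chain Lama1 (-2.91, SE 0.39) and elastin Eln (-2.48, SE 0.62). The type IV collagen chains Col4a1 and Col4a2, substrates of both gelatinases, fell by 1.63 and 1.74 on the log2 scale. Comp (2.36, SE 0.32) and the basement membrane protein Nid2 (1.67, SE 0.08) rose. Of 28 proteins shed from the cell surface, 8 rose and 6 fell, with a median of 0.07. As measured, Csf1r (3.74, SE 0.23), Trem2 (3.68, SE 0.16) and Cd44 (3.59, SE 0.25) rose most, and the first pair are macrophage genes. Trem2 lay below the median on all Thy1-negative arrays and differed by 2.03 with values below the median raised to it. The cadherin Cdh1 (3.08, SE 0.47) and the EGF receptor ligand Hbegf (1.36, SE 0.18) also rose. The Kit ligand Kitl (-3.26, SE 0.46), the EGF receptor ligand Tgfa (-2.82, SE 0.52) and the cadherin Cdh2 (-2.70, SE 0.16) fell most. Notch2, which Adam10 can cut, fell by 1.71, and Notch1 did not pass (-0.18, SE 0.15, adjusted p = 0.445).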

How the data were processed

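Affymetrix mouse genome arrays were run on RNA of 3 Thy1-negative and 3 Thy1-positive preparations. Values in the deposited table are linear intensities. The submitters' processing notes name GCRMA, without a version, while the labels describe Affymetrix's own software and a scaling target of 150. Trimmed means of 287 to 293 show that the table does not carry that scaling, and the procedure behind it is not settled.

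Of 45101 probe sets, 64 controls were left out, leaving 45037; the platform table gave 34945 of them a single gene, 932 several and 9160 none. The symbols of all 70 members matched RefSeq by Entrez identifier. Values were log2(intensity + 1), with no filter or further normalization. Fractions were compared with limma 3.58.1 (R 4.3.3; lmFit, eBayes; 2-sided; Benjamini-Hochberg at 0.05) over 18193 genes with 1 probe set each. SD is between arrays and SE is that of limma. The code was tested on simulated data.

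Members with values per array are the Timp genes, a fixed list of Mmp, Adam and Adamts genes, up to 3 called members per family and direction with the largest differences, and the other called members, which were added. Of pathway lists, up to 3 genes per direction and some fixed names are given; Furin, Rhbdf1, Tspan17, Clgn, Tex101, Col4a1, Col4a2, Notch1, Notch2, S100a8, Csf3r, Cxcr2, Elane, Spaca1, Adamdec1 and Cd163, and the members Adam11, Adam25, Adamts3, Adamts4, Adamts7, Adamts10, Adamts12, Adamts20, Adamtsl4, Mmp16, Mmp17 and Mmp24, were chosen after their values were seen, as were the limit of 0.1 for invariant members and the promoter motifs. Cdh1 and Hbegf were also named after their values were seen. Members and lists were chosen with earlier results of these data known. Adamts2 and Serpine2 are not analysed here.

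Samples of equal number are not said to share a preparation, so no block was used. Alternatives were other scalings, filters, floors, variance models and probe set rules, and leaving out arrays.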

Additional observations from a re-analysis of the deposited data

How the results depend on the processing

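The 13 calls were recomputed under 21 alternative settings. In the 6 fits without 1 array, 1 to 7 of the 70 members were higher and 3 to 12 lower. Over all genes, 7.42% to 23.5% were higher and 6.39% to 16.5% lower in these fits. Mmp9, Mmp23, Adam10 and Adamts8 passed in each of these fits. Without both arrays numbered 3, 0 members were higher and 0 lower by limma, where 0.819% and 0.335% of all genes passed and 11 members had an unadjusted p below 0.05. Without both arrays numbered 2, 5 were higher and 13 lower, where 23.9% and 17.1% of all genes passed. With array weights 19 were higher and 17 lower, where 41.3% and 26.1% of all genes passed. Centring on the median gave 39 higher members, where 57.4% of all genes were higher. Centring on housekeeping genes gave 43 lower ones, where 47.2% of all genes were lower. Quantile normalization gave 5 higher members, where 19.8% of all genes were higher, and lost Adam17 (0.21) and Adamtsl2 (-1.61).

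Arrays of equal number deviated from their fraction means with correlations of -0.16, -0.17 and -0.04, where all pairs of arrays gave -0.17 to 0.19. These values cannot show whether samples of equal number share a preparation, because fractions of the same preparation can deviate alike or in opposite ways. With the replicate number as a block 1 member was higher (Mmp9) and 2 lower (Adam10 and Adamts8), where 5.12% and 3.01% of all genes passed.

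With arrays centred on housekeeping genes the invariant members Adam1a (-0.15), Adam2 (-0.15), Adam3 (-0.15), Adam18 (-0.15), Adam28 (-0.15), Adam33 (-0.14), Mmp12 (-0.14), Mmp13 (-0.14) and Timp4 (-0.15) passed as lower, against differences of 0.00 to 0.01 as reported. None of the 13 calls turned in direction under any of these settings. Adamts8 and Mmp19 could not be fitted with genes above the median only. Probe sets near background limit what can be said of 40 members.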

Other observations

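Other metalloproteinases outside the described families also differed. Of 21 measured, 3 rose and 7 fell with the sort, where 18.5% of all genes rose and 14.4% fell. Pappa, which cleaves insulin-like growth factor binding proteins, measured 8.54, 8.02 and 8.61 in Thy1-negative against 3.999, 4.48 and 3.49 in Thy1-positive cells (-4.40, SE 0.32, adjusted p = 0.00245). Cpe, a carboxypeptidase that trims prohormones, differed by -3.29 (SE 0.51) and the angiotensin-cleaving aminopeptidase Enpep by -2.66 (SE 0.65). Those that were higher were the carboxypeptidase Cpm (2.05, SE 0.26), the antigen-trimming aminopeptidase Erap1 (1.29, SE 0.31) and Ece2 (0.70, SE 0.17). Adamdec1, an ADAM-like gene of macrophages, lay at 2.23 on all 6 arrays.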
